A study of Homo sapiens with 42 samples.

Results

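Splicing was compared between INA-6 and MM.1S, established human lines of multiple myeloma (the tumour of plasma cells, which secrete antibodies), in cells that carried a control guide RNA and were kept with interleukin-6 (IL-6). Members of the comparison were all splicing events that the authors' deposited tables list for INA-6 with a guide against POU2AF1 or ELL2, that is 15503 different events, of which 9733 events in 4521 genes were also listed for MM.1S in the table of the guide against SRSF1. The whole series lists 79530 different events from 42 libraries in 14 groups of 3. Each of the groups compared here had 3 strand-specific mRNA libraries. INA-6 sgEGFP cells expressed Cas9, received by lentivirus a guide RNA against EGFP, a sequence that human cells lack, were selected with puromycin for 2 days and were labelled as kept with IL-6, with no time stated. MM.1S sgEGFP cells were made in the same way, and their label gives IL-6 for 24 hours. They served as controls for the SRSF1 and HNRNPL guides of the series. Further MM.1S sgEGFP groups served the POU2AF1 and ELL2 guides, and both lines also had groups with no guide, with IL-6 for 24 hours. IL-6 is a growth factor for plasma cells on which INA-6 cells depend. Both lines are established lines and each stands for 1 tumour, so a difference between them need not hold for other lines. Line and sample set cannot be told apart in this comparison, since no library of either line is known to have been prepared together with the other. Separate cultures are not stated for the libraries of a group, so each p-value reflects the variation among these libraries only, and that can be technical.

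Splicing joins the exons of a primary transcript and removes its introns, and many exons, splice sites and introns are kept in only a share of the transcripts of a gene. SR proteins mostly promote the inclusion of exons they bind, while many hnRNP proteins oppose it, so that the use of an exon follows the balance of such factors in a cell. Skipped exons whose length is a multiple of 3 nt leave the reading frame as it was, and other lengths shift it, which can expose the transcript to nonsense-mediated decay (NMD), the pathway that degrades transcripts with early stop codons. Percent spliced in (PSI) is the share of transcripts, from 0 to 100%, that keep the exon or intron of an event or use its splice site. All differences are given in points of PSI, INA-6 minus MM.1S.

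The sequences of 7 short coding exons that differed between the lines, and of both forms of the TOR1AIP1 splice site, show what was kept or skipped. The 3 further exons, of LAIR1, LAS1L and CD44, were added after their values were seen. Capitals mark the segment whose inclusion PSI measures and lower case the neighbouring bases of the spliced transcript, both read 5′ to 3′ from GENCODE release 29 transcripts on GRCh38, with the strand of the gene.
CYTH2, chr19:48477717-48477719, plus strand: ctgaagctggGAGggggccgggt
PTS, chr11:112230208-112230230, plus strand: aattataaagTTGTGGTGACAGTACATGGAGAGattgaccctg
UGGT1, chr2:128156392-128156415, plus strand: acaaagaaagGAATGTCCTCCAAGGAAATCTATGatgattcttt
CD47, chr3:108050578-108050602, minus strand: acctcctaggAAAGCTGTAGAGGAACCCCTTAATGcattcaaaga
NCOR1, chr17:16151590-16151616, minus strand: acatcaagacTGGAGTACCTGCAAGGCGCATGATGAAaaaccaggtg
SRRM1, chr1:24663183-24663224, plus strand: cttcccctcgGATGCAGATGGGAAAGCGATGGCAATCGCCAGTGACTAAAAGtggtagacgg
EXOC1, chr4:55888888-55888932, plus strand: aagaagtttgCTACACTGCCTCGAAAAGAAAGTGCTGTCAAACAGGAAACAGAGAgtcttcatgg
LAIR1, chr19:54360022-54360072, minus strand: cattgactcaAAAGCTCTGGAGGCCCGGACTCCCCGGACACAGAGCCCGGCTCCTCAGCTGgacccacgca
LAS1L, chrX:65524564-65524614, minus strand: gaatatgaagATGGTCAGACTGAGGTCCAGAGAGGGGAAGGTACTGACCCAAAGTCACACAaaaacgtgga
CD44, chr11:35209965-35210054, plus strand: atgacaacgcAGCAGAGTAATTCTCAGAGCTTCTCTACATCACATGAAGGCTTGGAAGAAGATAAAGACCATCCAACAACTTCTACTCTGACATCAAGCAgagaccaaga
TOR1AIP1 longer form, chr1:179889310-179889312, plus strand: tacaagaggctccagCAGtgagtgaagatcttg
TOR1AIP1 shorter form, which lacks that segment: tacaagaggctccagtgagtgaagatcttg

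Most events had close values in the cell lines, and a minority differed by 10 points or more. Of the 9733 events, 5531 in 3024 genes had a value in all 6 libraries and varied after PSI was clipped to 1 and 99%, and 3889 of these differed by less than 5 points. An event was called where the difference of mean PSI was at least 10 points and the Benjamini-Hochberg adjusted p of limma, fitted to logit PSI over all 5531 events, was under 0.05. By this rule 721 events in 558 genes were called, which is 13.0% of the events and 18.5% of the genes. Of them 289 (5.23% of tested events) were higher and 432 (7.81%) lower in INA-6, and 31 genes had called events in both directions. The median difference of called events was 15.4 points in size, 206 of them reached 20 points and 9 reached 50 points. At the threshold, a retained NAPRT intron was just inside at 7.72% in INA-6 and 17.7% in MM.1S, and a retained TMEM259 intron just outside at 11.8 and 1.80%. The adjusted p alone, with no minimum size, was under 0.05 for 2063 events, 863 higher and 1200 lower. No library of one line overlapped the other line in any of the 721 called events, nor in 53.7% of tested events.

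**Figure D1:**
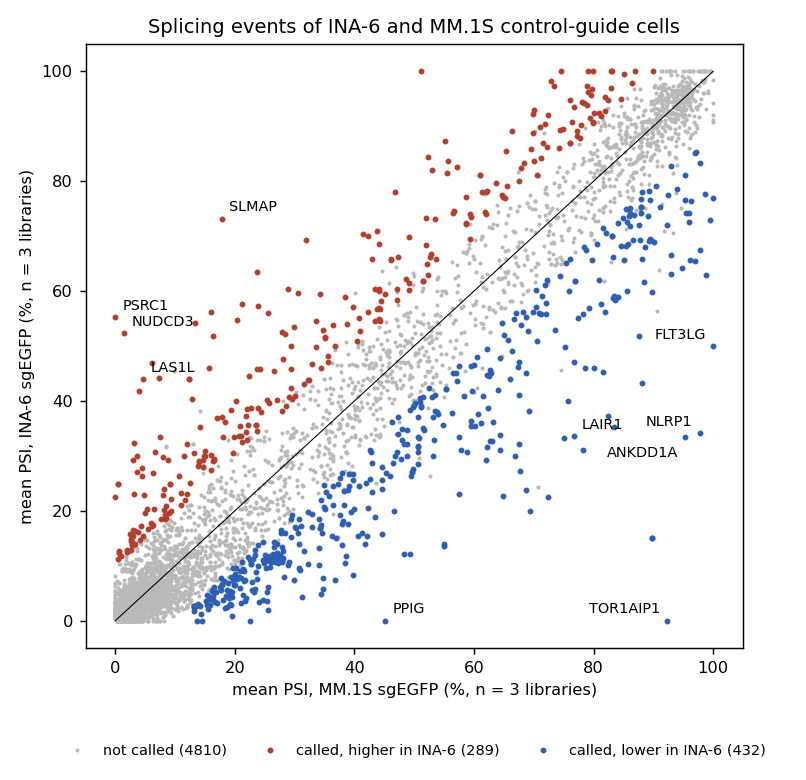
Mean PSI of each tested event in MM.1S sgEGFP (horizontal axis, %) and INA-6 sgEGFP (vertical axis, %), n = 3 libraries each. Grey points are the 4810 events not called, red the 289 called higher and blue the 432 called lower in INA-6, and the line marks equal values, along which most events lie.

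The tables set limits on these counts. INA-6 events were listed where PSI differed between sgEGFP and the POU2AF1 or ELL2 guide in the same INA-6 libraries, or where both INA-6 groups were constant, so the listing favours a small spread in INA-6. The median SD over tested events was 0.603 points in INA-6 and 1.37 points in MM.1S. For 3439 of the 9733 events the deposited p for INA-6 is missing, and 97.5% of those were at 0 in every INA-6 sgEGFP library, so that an MM.1S value could only be higher. Of the events with no p-value, 13 were among those called, and TOR1AIP1, PPIG and KRBOX5 are the ones described below. The tables hold no read counts, so the depth behind a PSI value is unknown. For 1 event alone, an exact permutation test of 3 against 3 libraries cannot give a two-sided p below 0.1. No defining plasma cell gene of a list of 9 had a called event: MZB1 had 6 tested events, IRF4 had 1 and the others had none, and the 6 T-cell and myeloid marker genes had no joined event. PSI carries no transcript abundance, so these lists do not show which markers were expressed.

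In some of the largest differences a splice form was at 0 in every library of one line. TOR1AIP1, which encodes the inner nuclear membrane protein that activates torsin ATPases, had a tandem 3′ splice site at chr1:179889310-179889312 that adds 3 nt, shown above. Its PSI was 0% in each library in INA-6 and 91.8, 92.5 and 92.7% in MM.1S. INA-6 thus had only the shorter form and MM.1S mostly the longer one. This event has no deposited p for INA-6, so the value of 0 in INA-6 was a condition of its listing. It was also at 0 in every library of INA-6 with IL-6 and no guide, without IL-6, and with the POU2AF1 and ELL2 guides. These values of 0 belong to groups listed as constant, so they were conditions of listing too. The TOR1AIP1 mean was 93.01% ± 1.8 and 92.4% ± 0.85 in MM.1S with the SRSF1 and HNRNPL guides. PPIG, a nuclear cyclophilin with an SR-like domain, had a similar layout at an alternative first exon with a 5′ site change of 7 nt, at 0% in each library in INA-6 and 51.7, 40.8 and 43.1% in MM.1S, also without a deposited p. PSRC1, which encodes a microtubule-binding protein of the mitotic spindle, went the other way at a first-exon 3′ site of 5 nt, with 53.6, 57.1 and 55.1% in INA-6 and 0% in each library in MM.1S. The limma adjusted p was 1.4e-06 for TOR1AIP1, 4.0e-05 for PPIG and 6.9e-06 for PSRC1. For TOR1AIP1 and PPIG the lack of spread in INA-6 behind these p-values was set by the listing.

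Among the 12 largest increases, taken over genes that each enter by their single largest event, a 90-nt exon of SLMAP, which encodes a tail-anchored membrane protein, was kept in 70.9, 74.8 and 74.02% of transcripts in the INA-6 libraries and 18.9, 19.4 and 15.2% in the MM.1S libraries, a difference of 55.4 points (limma adjusted p = 0.00014). The exon lies at chr3:57925845-57925934, and GENCODE release 29 transcripts with exactly this exon code for part of it at most. LAS1L, an endonuclease of ribosomal RNA processing, kept its 51-nt coding exon in 44.1, 45.4 and 42.3% of transcripts in INA-6 and 4.46, 4.04 and 5.35% in MM.1S. Its groups were far apart, with a difference of 39.3 points (limma adjusted p = 7.6e-05). NUDCD3, a dynein co-chaperone, used an alternative 5′ splice site in 55.05, 48.4 and 53.9% of INA-6 and 2.22, 1.18 and 1.06% of MM.1S transcripts. RAPGEF1, an exchange factor for the small GTPase RAP1, did so in 60.9, 56.6 and 51.2% and 17.5, 9.92 and 20.3%. The targets listed for the NUDCD3 and RAPGEF1 sites span 24581 and 63214 nt, so they include other exons and are not the kept segment. BOD1L1, which protects stalled replication forks, had the widest spread in INA-6 of these genes, at 50, 52.9 and 29.4%. In MM.1S it was at 3.7, 12 and 6.38%, for an exon of 2923 nt tagged for NMD. With the ELL2 guide in INA-6 that exon was at 14.7% ± 5.6 (2 values), much nearer to MM.1S. With the SRSF1 and HNRNPL guides in MM.1S it was at 0% (3 and 2 values). KRBOX5, a KRAB-domain gene, kept its exon run in 100% in each library in INA-6 and 75, 43.2 and 35.4% in MM.1S, an event without a deposited p, with a wide spread in MM.1S. The remaining members of this group were events of ARMCX3, CUTA, DDX5, MIR4435-2HG and the pseudogene PI4KAP1, with differences from 35.6 to 40.8 points. An intron of ENSG00000233223, described below, differed by 36.5 points, more than ARMCX3, but that gene entered by a larger event in the other direction (-41.9 points), which was not among the 12 largest decreases.

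Decreases were as large. ANKDD1A, a gene with ankyrin repeats and a death domain, kept a 96-nt coding exon in 35.9, 32 and 32.5% in INA-6 and 98.2, 94.7 and 93.2% in MM.1S, a difference of -61.9 points (limma adjusted p = 0.0012). NLRP1, an inflammasome sensor, kept a 45-nt coding exon of a run in 36.9, 34.2 and 31.2% in INA-6 and 100, 100 and 93.4% in MM.1S. FLT3LG, the ligand of the receptor FLT3, kept the exons of a run in 46.7, 49.4 and 53.9% in INA-6 and 100% in each library in MM.1S, so that MM.1S had only the form with them. An exon of FAM13B, a gene with a RhoGAP domain, was at 38.9, 39.1 and 27.7% in INA-6 and 79.4, 91.8 and 79.1% in MM.1S. With other guides the means were in the other order, at 63.05% ± 4.2 for the POU2AF1 guide in INA-6 and 48.04% ± 5.9 for the SRSF1 guide in MM.1S. HM13, the signal peptide peptidase of the endoplasmic reticulum, used a 5′ splice site in 32.3, 32.3 and 47.2% in INA-6 and 78.7, 87.5 and 81.2% in MM.1S. With other guides HM13 was at 59.9% ± 7 (POU2AF1) and 57.3% ± 5.4 (ELL2) in INA-6 and at 64.9% ± 11 (SRSF1) and 65.6% ± 9.1 (HNRNPL) in MM.1S, means much closer to each other. In each of these genes the lowest MM.1S sgEGFP library lay above the highest INA-6 sgEGFP library. DNHD1 and PSMC3 had wide MM.1S spreads, 69.2, 95.7 and 52.4% for DNHD1 and 70.6, 50 and 85.3% for PSMC3, an ATPase of the proteasome base, against 21.7, 19.2 and 26.3% and 22.9, 25 and 23.2% in INA-6. Both lost their call in limma when any 1 INA-6 library was left out, with differences from -48.4 to -51.9 points for DNHD1 and from -44.5 to -45.5 points for PSMC3, and DNHD1 also without 1 MM.1S library (-51.6 points). With other guides DNHD1 was at 36.8% ± 4.7 (POU2AF1) and 42.65% ± 5.3 (ELL2) in INA-6. In MM.1S it was at 60.7% ± 11 with the SRSF1 guide and 60.4% ± 2.6 in the controls of the ELL2 guide. With the HNRNPL guide in MM.1S it was at 31.1% ± 7.2, below those INA-6 means. RRP7BP, a pseudogene, LINC03006, a long non-coding RNA, and CCDC169 completed the 12, with differences of -74.8, -49.5 and -47.2 points. The targets listed for RRP7BP and LINC03006 span 15209 and 19316 nt. Reads of a pseudogene can belong to its parent gene, so the RRP7BP and PI4KAP1 values are uncertain.

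**Figure D2:**
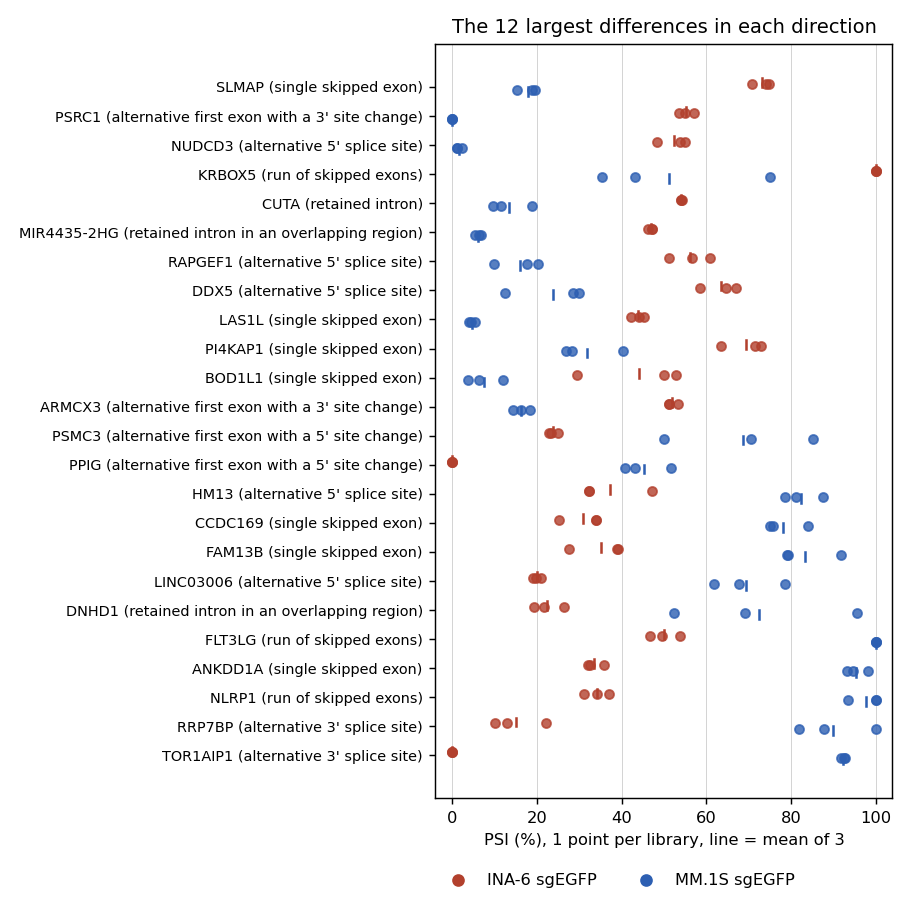
PSI (%) of each library for the 12 largest differences in each direction, each gene by its single largest event, red INA-6 sgEGFP and blue MM.1S sgEGFP, with a line at each mean (n = 3). In every event shown the points of the lines do not overlap, from SLMAP at 73.2 and 17.9% to TOR1AIP1 at 0 and 92.3%.

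Exons of the surface receptor genes CD44, CD47, LAIR1 and FCMR were called lower in INA-6. CD44, the hyaluronan receptor, has a block of variable exons in its extracellular stem, and all 8 of its listed events were lower in INA-6, 7 of them called. The 90-nt variable exon shown above, as part of a run, was kept in 5.36, 4.72 and 4.5% in INA-6 and 35.05, 34.3 and 33.7% in MM.1S (difference -29.5 points, limma adjusted p = 6.2e-05). Its 102-nt neighbour was at 4.65, 4.42 and 3.92% and 31.9, 30.9 and 30.8%, and the 204-nt exon at 7.87, 8.81 and 6.77% and 33.4, 34.5 and 36.2%. The 132-nt exon reached 14.4, 11.5 and 13.6% in MM.1S against 1.63, 1.9 and 1.78% in INA-6. The 129-nt exon, at 6.87, 5.55 and 6.97% in MM.1S and 1.09, 1.34 and 0.95% in INA-6, was separated too but by less than 10 points. These exons are listed in the same transcripts and share reads, so they are not separate observations. Where other groups were listed they lay with their line: the 102-nt exon was at 5.24% ± 0.31 in INA-6 with IL-6 and no guide, and the 132-nt exon at 12.6% ± 0.71 in the MM.1S sgEGFP controls of the ELL2 guide.

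CD47, the surface protein that signals through SIRPA to restrain phagocytosis, kept a 25-nt exon of its cytoplasmic tail in 9.75, 8.53 and 9.29% in INA-6 and 32.3, 30.4 and 30.2% in MM.1S (difference -21.8 points, limma adjusted p = 0.00019). All 4 called CD47 events were lower in INA-6, and MM.1S with IL-6 and no guide had 27.3% ± 1.2 for this exon. LAIR1, an inhibitory collagen receptor of leukocytes, kept a 51-nt coding exon in 34.6, 40.1 and 26.2% in INA-6 and 80.3, 75.9 and 74.2% in MM.1S, a difference of -43.2 points (limma adjusted p = 0.0014). Its INA-6 libraries were spread widely and all lay far below MM.1S. In cells with other guides the order of the lines depended on the guide. LAIR1 was at 67.8% ± 4.7 for the POU2AF1 guide in INA-6. In MM.1S it was at 40.4% ± 6.2 for the SRSF1 guide and 76.3% ± 0.82 for the HNRNPL guide. FCMR, the receptor for the Fc part of IgM, kept the target exon of a run in 56.6, 55.4 and 55.8% in INA-6 and 68.9, 65.9 and 78.1% in MM.1S. Its call was lost when any 1 INA-6 library was left out, at -14.7 to -15.3 points. For FCMR too the order of the lines depended on the guide. It was at 51.1% ± 1.7 for the POU2AF1 guide in INA-6. In MM.1S it was at 41.8% ± 3 for the SRSF1 guide and 70.07% ± 1.7 for the HNRNPL guide. Of 10 tested genes of B-cell and plasma-cell identity 3 were called, CD44, FCMR and LAIR1, all lower in INA-6, where 18.5% of all genes tested were called. The median difference over the 31 tested events of this list was -2.1 points, and over all 5531 tested events -0.45 points. Of the 9 called events of this list 7 were CD44 events, which share reads, so the median of the list is weighted by CD44.

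**Figure D3:**
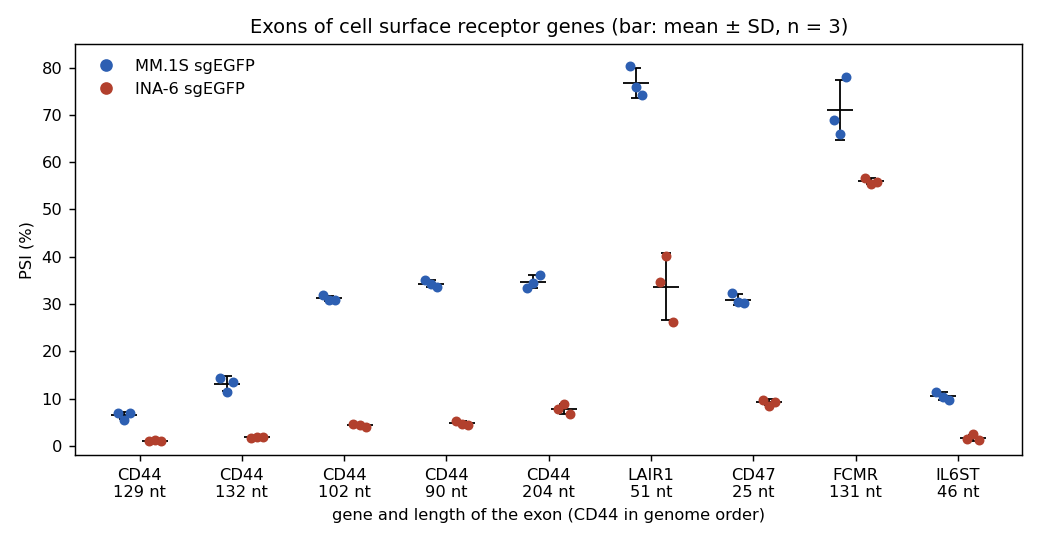
PSI (%) of exons of receptor genes in each library, blue MM.1S sgEGFP and red INA-6 sgEGFP, bars mean ± SD (n = 3). For CD44 the event with the widest difference is shown for each exon, and in every pair the INA-6 points lie below the MM.1S points, as for IL6ST at 1.69 and 10.5%, which did not reach 10 points.

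Genes of IL-6 and its pathway were called in 2 of 16 tested (12.5%), where 18.5% of all genes were, and the difference between these shares was not tested. IL6ST encodes gp130, the signalling chain of the IL-6 receptor, and its 46-nt exon, tagged for NMD, was at 1.43, 2.46 and 1.17% in INA-6 and 11.5, 10.3 and 9.73% in MM.1S (difference -8.82 points, limma adjusted p = 0.0016). The libraries did not overlap but the size was under the threshold. IL6R and PTPRC had no joined event. The 2 called genes of this list of IL-6, JAK-STAT, RAS and NF-kB signalling were both lower in INA-6, with a median of -0.605 points over 28 tested events. NFKB2, whose p100 protein is processed to the NF-kB subunit p52, retained a 91-nt intron in 5.03, 5.82 and 5.97% in INA-6 and 22.6, 22.7 and 23.4% in MM.1S (limma adjusted p = 0.00018). PIAS1, a SUMO ligase that restrains cytokine signalling, retained an intron in 16.2, 17.2 and 16.2% and 26.6, 26.2 and 30.5%, a difference of -11.2 points, or -9.84 points and no call without 1 MM.1S library. Of the targeted genes, ELL2 and SRSF1 had no joined event. The 79-nt non-coding or UTR exon of POU2AF1, a B-cell coactivator, was at 1.26, 1.13 and 1.21% in INA-6 and 2.7, 3.4 and 4.29% in MM.1S, a small separation at low levels. The retained 111-nt intron of HNRNPL was at 7.28, 7.8 and 7.56% in INA-6 and 9.48, 8.06 and 7.88% in MM.1S, and these libraries lay within 3 points of each other (limma adjusted p = 0.32). The EGFP target is not a human gene and could not be checked in these tables.

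Genes of the splicing machinery were among those that differed. Of 30 tested hnRNP and related regulator genes 10 were called, 8 only lower, 1 only higher and 1 in both directions, against 18.5% of all genes. The median over their 77 tested events was -1.0 points. HNRNPC exchanged a 26-nt exon in mutually exclusive use, at 69.4, 69.3 and 69.4% in INA-6 and 87.95, 87.8 and 87.8% in MM.1S (limma adjusted p = 0.00021). MM.1S with IL-6 and no guide was at 89.5% ± 0.9 for that exon, on the MM.1S side. TIAL1, a U-rich RNA-binding protein, used a 51-nt longer 3′ site in 36.1, 37.6 and 39.9% in INA-6 and 57.9, 53.5 and 57.3% in MM.1S, with INA-6 with IL-6 and no guide at 35.9% ± 1.8. HNRNPU, CELF1 and HNRNPA3 had differences of -15.5, -15.1 and -13.6 points. With other guides CELF1 was at 72.6% ± 3.3 (ELL2) in INA-6 and 71.02% ± 11 (SRSF1) in MM.1S, so the lines were close. HNRNPU kept its order, at 60.3% ± 5.1 (POU2AF1) in INA-6 and 70.7% ± 1.7 (SRSF1) and 79.2% ± 2.9 (HNRNPL) in MM.1S. For HNRNPA3, however, the MM.1S sgEGFP controls of the POU2AF1 guide were at 78.4% ± 0.28, nearer to the INA-6 mean of 74.3% ± 0.79 than to the MM.1S mean of 87.9% ± 1.7.

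Of 9 tested SR and SR-like genes 3 were called (33.3%, against 18.5% of all genes), with a median of -0.286 points over 21 events. By event it was 3 of 21, against 13.0% of all events. SRSF5 retained an intron in 5.95, 5.83 and 5.95% in INA-6 and 22.3, 19.6 and 20.6% in MM.1S (limma adjusted p = 0.0002). SRRM2, a scaffold of nuclear speckles, kept an exon in 96.7, 95.3 and 95.4% and 85.5, 75.5 and 78%, and was the one of the 3 that was higher in INA-6. SRRM1 kept the 42-nt exon shown above in 39.3, 40 and 40.2% in INA-6 and 56.6, 47.2 and 48.9% in MM.1S, but MM.1S with IL-6 and no guide was at 38.4% ± 1.9, below INA-6, and the controls of the POU2AF1 guide at 48.4% ± 1.4, near MM.1S. Leaving out any INA-6 library or 1 MM.1S library ended the SRRM1 call, at -8.27 to -11.3 points. Of 23 tested core spliceosome genes and regulators 5 were called (21.7%, against 18.5% of all genes), 2 higher and 3 lower. By event it was 5 of 58, against 13.0% of all events, with a median of -0.187 points. The lower ones were all retained introns: CLK1, a kinase of SR proteins, at 3.98, 4.1 and 3.99% in INA-6 and 13.2, 18.5 and 15.03% in MM.1S, CLK2 with a difference of -10.5 points, which was -8.34 points without 1 MM.1S library, and PNISR with -13.1 points. DDX5, a DEAD-box helicase that acts in splicing, used a 5′ site in 58.6, 67.1 and 64.6% in INA-6 and 28.6, 12.5 and 30% in MM.1S, with 28.6% ± 2.8 in the MM.1S controls of the ELL2 guide. LUC7L3, a protein of U1 snRNP, kept a 66-nt exon in 45.7, 46.9 and 52.03% and 32.5, 31.5 and 42.6% (limma adjusted p = 0.047), where the lines were separated by a small gap. The LUC7L3 call did not hold without any 1 INA-6 library or either of 2 MM.1S libraries, at 10.6 to 13.9 points. INA-6 with IL-6 and no guide was at 49.5% ± 6.5 for that exon. With other guides the means were in the other order. They were 36.5% ± 5.3 (POU2AF1) and 38.9% ± 4.5 (ELL2) in INA-6, and 43.3% ± 2.1 (SRSF1) and 43.6% ± 3 (HNRNPL) in MM.1S.

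Of 29 tested NMD, RNA turnover and snoRNA host genes 11 were called (37.9%, against 18.5% of all genes), 5 only higher, 5 only lower and 1 in both directions. By event it was 22 of 132, against 13.0% of all events. The median over these events was -0.793 points. SNHG8, a snoRNA host, kept an exon in 33.2, 33.3 and 34.7% in INA-6 and 65.4, 65.7 and 62.2% in MM.1S (limma adjusted p = 0.0003), while SNHG29 used a 53-nt longer 3′ site in 29.8, 29.6 and 30.03% and 7.97, 7.94 and 7.75%. These hosts differed in opposite directions at different kinds of event. SMG1, the kinase that starts NMD, kept a 58-nt exon in 14, 21.3 and 11.1% in INA-6 and 41.3, 44.4 and 36.2% in MM.1S. PAN2, a deadenylase, retained an intron in 10.4, 13.7 and 11.3% in INA-6 and 36.6, 41.4 and 37.8% in MM.1S (limma adjusted p = 0.00043). TAF1D, a subunit of the RNA polymerase I factor SL1, kept a 58-nt exon in 62.7, 63.9 and 62.1% in INA-6 and 100, 99.3 and 97.4% in MM.1S, but the MM.1S controls of the POU2AF1 guide were at 59.6, 54.9 and 63.8%, and with these controls the difference was 3.47 points. For TAF1D the MM.1S sgEGFP groups were thus farther from each other than the lines were in that fit.

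Cytosolic ribosomal protein genes had 6 of 25 tested genes called (24.0%, against 18.5% of all genes), 4 only lower, 1 only higher and 1 in both directions. By event it was 9 of 52, against 13.0% of all events, with a median of -1.56 points. For 4 of the 6 genes the other MM.1S control groups with IL-6 did not lie with the MM.1S group compared. Ribosomal protein genes have many processed pseudogenes that can share their reads, so their values are uncertain. RPL6 used a first-exon 5′ site in 5.37, 6.37 and 5.28% in INA-6 and 31.8, 37.9 and 34.5% in MM.1S, but in 10.5, 10.3 and 11.2% in the MM.1S controls of the ELL2 guide and in 13.7, 11.1 and 10.9% in MM.1S with IL-6 and no guide. RPL13 retained a 100-nt intron in 0.919, 0.864 and 0.777% in INA-6 and 18.2, 19.8 and 20.6% in MM.1S, but in 3.32, 3.81 and 3.89% and 3.29, 3.56 and 3.65% in those 2 MM.1S groups. Most of each difference was thus absent from those 2 MM.1S groups. RPL34 went from 3.28% ± 0.23 in INA-6 and 21.01% ± 0.38 in MM.1S to 8.21% ± 0.49, 9.4% ± 0.39 and 8.48% ± 0.62 in the other MM.1S control groups with IL-6, and RPL8 from 3.76% ± 0.095 and 18.1% ± 0.97 to 7.57% ± 0.21 and 6.7% ± 0.1. RPL17 differed: its 98-nt non-coding or UTR exon was at 46.2, 45.8 and 45.6% in INA-6, 23.6, 25.1 and 23.9% in MM.1S and 28.5, 25.99 and 23.7% in the MM.1S controls of the POU2AF1 guide, so these MM.1S groups lay together. For RPL6, RPL13, RPL34 and RPL8, MM.1S cells with the SRSF1 and HNRNPL guides lay on the side of the MM.1S group compared. Their means were 30.9 and 39.75% for RPL6 and 17.6 and 22.8% for RPL13. They were 20.6 and 29.4% for RPL34 and 19.5 and 22.35% for RPL8.

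Genes of cell death, cell cycle and repair were called in shares of 13.6 to 16.7%, where 18.5% of all genes were. Of 12 tested apoptosis genes 2 were called (16.7%), with a median of -0.463 points over 23 events. BBC3, the BH3-only protein PUMA, kept the target exon of a run in 75, 81.8 and 77.1% in INA-6 and 60.6, 60.5 and 65.2% in MM.1S, and CASP10, an initiator caspase, kept a 37-nt exon in 44.3, 47.5 and 41.6% and 66.1, 60.5 and 60.9%. Of 22 tested cell cycle and p53 genes 3 were called (13.6%), with a median of -0.2 points over 35 events. FOXM1, a transcription factor of genes of mitosis, kept a 45-nt coding exon in 50.8, 47.95 and 48.3% in INA-6 and 65.3, 65.99 and 67.7% in MM.1S, with 54.1% ± 2.2 in MM.1S with IL-6 and no guide and 68.01% ± 2.3 without IL-6. The MM.1S controls of the POU2AF1 guide were at 59.7% ± 1.1, so the MM.1S groups were spread over much of the gap between the lines. CDK14, a cyclin-dependent kinase, used a first-exon 5′ site in 31.2, 30.6 and 34.6% in INA-6 and 65.8, 68 and 68.9% in MM.1S, with 67.3% ± 4.7 and 67.5% ± 2.3 in the other MM.1S groups with IL-6. AURKA, a mitotic kinase, used a first-exon site of 14 nt in 25.6, 27.8 and 25.7% and 9.17, 8 and 14.7%. Of 26 tested DNA repair genes 4 were called (15.4%), 3 only lower and 1 in both directions, with a median of -0.514 points over 52 events. FANCA, of the Fanconi core complex, kept a 113-nt coding exon in 55.9, 57.2 and 54.2% in INA-6 and 80.2, 77.4 and 77.2% in MM.1S (limma adjusted p = 0.0007), and ATRIP, the partner of the ATR kinase, retained an intron in 3.17, 4.91 and 4.48% and 17.4, 18.03 and 21.4%. PMS2, a mismatch repair gene with near-identical pseudogenes, and MUTYH, a DNA glycosylase, had differences of -13 and -11.5 points. The MUTYH value ran from -8.65 to -12.0 points with 1 library left out and lost its call for 4 of the 6 libraries. With other guides MUTYH was at 18.4% ± 1.1 (POU2AF1) in INA-6 and 17.04% ± 4.5 (SRSF1) in MM.1S.

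Among chromatin regulators 8 of 46 tested genes were called (17.4%, against 18.5% of all genes), 4 higher and 4 lower, with a median of -0.184 points over 95 events. CHD4, the helicase of the NuRD complex, used a 21-nt longer 3′ site in 67.04, 66.5 and 63.7% in INA-6 and 46.9, 46.9 and 44.6% in MM.1S (limma adjusted p = 0.0013), while KMT2D, a histone methyltransferase, did so at another 21-nt site in 83.3, 80 and 86.7% and 93.3, 100 and 100%. With other guides KMT2D was not lower in INA-6, at 97.3% ± 4.6 for the POU2AF1 guide, against 87.3% ± 4.2 and 92.1% ± 6.9 for the SRSF1 and HNRNPL guides in MM.1S. MBD1, which binds methylated DNA, and KDM5A, a histone demethylase, had differences of 13.9 and -11.7 points. In INA-6, MBD1 was at 72.8% ± 2.3 with IL-6 and no guide and at 54.02% ± 1.1 with the POU2AF1 guide. In MM.1S it was at 63.2% ± 3.1 with the SRSF1 guide and 52.01% ± 1.9 with the HNRNPL guide. The corepressor NCOR1 kept the 27-nt exon shown above in 12.4, 13.5 and 13.7% in INA-6 and 36.1, 34.8 and 31.6% in MM.1S, with no overlap between the lines. BRD1 used a 3′ site in 33.01, 36.2 and 30.8% in INA-6 and 14.5, 24.1 and 20.7% in MM.1S, but MM.1S with IL-6 and no guide was at 45.3% ± 4.1, above INA-6. The calls of KMT2D (-16.1 to -12.8 points) and BRD1 (12.2 to 14.8 points) were lost when any 1 INA-6 library was left out, and KMT2D also lost it without either of 2 MM.1S libraries (-13.3 points). IRF3, a transcription factor of interferon genes, used a 3′ site in 83.8, 84.3 and 83.2% in INA-6 and 56.7, 51.5 and 58.6% in MM.1S (limma adjusted p = 0.00041). SREBF1, a regulator of lipid synthesis, kept a 90-nt coding exon in 56.01, 52.04 and 52.5% in INA-6 and 27.9, 33.99 and 27.8% in MM.1S, and INA-6 with IL-6 and no guide was at 50.6% ± 1.

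The named events of secretion and cytoskeleton genes were mostly skipped exons. Of 23 tested genes of endoplasmic reticulum (ER) quality control and secretion 3 were called (13.0%, against 18.5% of all genes), with a median of -0.272 points over 50 events. UGGT1, the glucosyltransferase that senses misfolded glycoproteins, kept the 24-nt exon shown above in 29, 22.5 and 30.8% in INA-6 and 18.5, 13.5 and 15.7% in MM.1S, EDEM2, of ER-associated degradation, kept a 122-nt exon in 89.3, 88.8 and 90% and 75.6, 75 and 72.5%, and SEC31A, a coat protein of vesicles that leave the ER, kept a 39-nt exon in 16.1, 15.1 and 16.6% and 31.5, 30.7 and 41.7%. UGGT1 and EDEM2 were higher in INA-6 and SEC31A lower. With IL-6 and no guide UGGT1 kept this order, at 24% ± 1.8 in INA-6 and 12.9% ± 2 in MM.1S. With the POU2AF1 guide in INA-6 it was at 17.1% ± 2.8. With the POU2AF1, SRSF1 and HNRNPL guides in MM.1S it was at 18.4% ± 2, 22.85% ± 3.4 and 20.8% ± 2.7. Of 34 tested cytoskeleton, adhesion and polarity genes 8 were called (23.5%), 3 only higher and 5 only lower, with a median of -0.728 points over 65 events. ARHGEF1, an exchange factor for RHOA, kept a 12-nt exon in 6.99, 8.12 and 7.01% in INA-6 and 27.3, 34.5 and 27.8% in MM.1S (limma adjusted p = 0.00044), with MM.1S with IL-6 and no guide at 29.3% ± 2.9. EXOC1, a subunit of the exocyst, kept the 45-nt exon shown above in 37.9, 40.5 and 36.7% and 26.7, 12.2 and 19.1%. MYO9B, a myosin with a RhoGAP domain, retained a 108-nt intron in 20.1, 20.5 and 19.2% in INA-6 and 46.8, 49.2 and 43.9% in MM.1S. MYL6, a myosin light chain, kept a 77-nt exon in 21.7, 37.9 and 30.4% in INA-6 and 8.7, 0 and 2.22% in MM.1S, with a wide INA-6 spread. With no guide INA-6 was at 22.3% ± 6.3 with IL-6 and 8.09% ± 2.4 without it for that exon. With other guides it was at 12.3% ± 6 (POU2AF1) and 12.7% ± 5 (ELL2) in INA-6. In MM.1S it was at 4.56% ± 1.2 (SRSF1, 2 values) and 1.26% ± 1.2 (HNRNPL). The calls of EXOC1, MYL6 and UGGT1 were lost without 1 INA-6 library, at 18.0 to 19.9, 22.4 to 26.2 and 9.8 to 10.7 points, and EXOC1 also without 1 MM.1S library (18.9 points). Genes with well-known alternative exons, among them CD44, MYL6 and SREBF1, were called in 4 of 22 tested (18.2%), 3 higher and 1 lower, with a median of -0.392 points over 62 events.

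Single skipped exons of up to 30 nt were called in 9 of 29 tested (31.0%), 5 higher and 4 lower. Of longer single exons 173 of 1100 were called (15.7%), and of all events 13.0%. The difference between these shares was not tested. CYTH2, an exchange factor for ARF GTPases, kept its 3-nt exon in 45.7, 44.5 and 43.9% in INA-6 and 59.8, 65.5 and 61.1% in MM.1S (limma adjusted p = 0.003). PTS, an enzyme of tetrahydrobiopterin synthesis, kept a 23-nt coding exon, whose skipping shifts the frame, in 62.3, 56.7 and 59.7% in INA-6 and 34.1, 33.8 and 23.5% in MM.1S. With IL-6 and no guide PTS was at 49.98% ± 0.32 in INA-6 and 31.5% ± 2.9 in MM.1S, each nearer to its own line. Without IL-6 it was at 39.9% ± 2.3 in INA-6, nearer to MM.1S sgEGFP, and at 19.9% ± 5.6 in MM.1S. With other guides it was at 65.75% ± 2.2 (POU2AF1) in INA-6 and 37.6% ± 2.6 (SRSF1) and 23.9% ± 6.1 (HNRNPL) in MM.1S. CHKB, choline kinase beta, kept a 26-nt non-coding or UTR exon in 80.9, 83.5 and 79.03% in INA-6 and 51.9, 66.7 and 64.6% in MM.1S, and TRIM35 a 23-nt exon in 88.2, 91.3 and 88.9% and 76.2, 73.7 and 74.8%.

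The share of events called and their direction are given by event type for these libraries, and neither was tested between types. Over all types 13.0% of tested events were called. Single skipped exons were called in 182 of 1129 tested (16.1%), 93 higher and 89 lower. Runs of skipped exons were called in 119 of 537 (22.2%), 40 higher and 79 lower, and first exons with a 5′ site change in 76 of 363 (20.9%), 19 higher and 57 lower. Alternative 5′ splice sites went more often the other way, with 39 of 58 called events higher, and alternative 3′ splice sites had 26 higher and 43 lower. The direction of some types depended on the MM.1S group. Against MM.1S with IL-6 and no guide, runs of exons had 19 higher and 5 lower, in place of 13 and 12 for the events of that table in the libraries compared, and first exons with a 5′ site change had 8 and 7 in place of 5 and 17. Against the controls of the POU2AF1 guide runs had 8 and 8 in place of 4 and 14. Within MM.1S, cells with IL-6 and no guide against the sgEGFP group had 0 higher and 15 lower first exons of this type and 3 higher and 35 lower single exons. At 3′ sites with a target of 3 nt, 15 of 77 were called (19.5%), 2 higher and 13 lower. Of all alternative 3′ splice sites 13.5% were called. Called single exons had a median length of 118 nt and 49.5% had a length divisible by 3, against 114 nt and 44.7% of those not called. The share called was 16.8% of 555 coding exons and 19.9% of 287 non-coding or UTR exons, by GENCODE release 29. Events tagged for NMD were called in 36 of 429 (8.39%), 17 higher and 19 lower, against 13.4% of the 5102 not tagged. The called events described for BOD1L1, CUTA, KRBOX5, MYL6, NLRP1 and TAF1D carry this tag.

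The widest events of the remaining types lay in genes of varied functions. Of mutually exclusive exons, PLD3, a lysosomal exonuclease, had one at 21.8, 24.1 and 23.5% in INA-6 and 53.7, 56.9 and 61.8% in MM.1S, and ZNF266, a zinc finger gene, one at 56.99, 58.7 and 61.3% and 45.3, 25.4 and 44.6%. PLD3 was clearly separated, while the ZNF266 call was lost without any 1 INA-6 library, at 19.4 to 21.6 points. PCED1B-AS1, an antisense RNA, had the other one that was higher, with 16.9 points. Of runs of skipped exons, one of CDK5RAP2, a centrosome protein, was kept in 90.8, 86.9 and 84.6% in INA-6 and 51.7, 48.4 and 65.4% in MM.1S, with 67.2% ± 1.8 in the MM.1S controls of the ELL2 guide. BLOC1S6, a subunit of a complex of lysosome-related organelles, used a first exon with a 5′ site change in 28.3, 28.4 and 26.5% in INA-6 and 3.83, 4.52 and 4.81% in MM.1S (limma adjusted p = 0.00014). For BLOC1S6 a form that was rare in MM.1S was common in INA-6. URI1, a prefoldin-like protein, and ZNF761 used first-exon 3′ sites with differences of -16.99 and -17.9 points, the latter not called without 1 of 2 INA-6 libraries (-16.3 and -17.6 points).

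Retained introns were called least often, in 171 of 2249 tested (7.6%), 43 higher and 128 lower in INA-6. Of 3282 other events 550 were called (16.8%), 246 higher and 304 lower. This gap between the shares depended on the minimum of 10 points. With the adjusted p of limma under 0.05 and no minimum, 277 introns were higher and 542 lower. For the other events these counts were 586 and 658. The median difference was -0.513 points over all tested introns and -0.378 points over the other events, so the levels as a whole were close. Among introns over 200 nt, 20 were higher and 94 lower, and among shorter ones 23 and 34. AMZ2, a metallopeptidase gene, retained an intron in 41.8, 44.8 and 42.99% in INA-6 and 91.1, 85.6 and 87.4% in MM.1S (limma adjusted p = 0.00038), and SPINDOC, a partner of the histone reader SPIN1, in 11.6, 10.2 and 14.6% and 56.2, 38.7 and 50%. In the other direction a gene listed only by the identifier ENSG00000233223 retained an intron in 57.3, 58.5 and 57.4% in INA-6 and 22.2, 18.2 and 23.3% in MM.1S. PSD, an exchange factor for ARF6, retained one in 57.7, 49.1 and 57.1% in INA-6 and 31.2, 8.93 and 20.7% in MM.1S, a call that was lost without any 1 INA-6 library (32.9 to 37.1 points). Against other MM.1S controls introns were again mostly lower in INA-6, with 0 higher and 6 lower of 204 tested with the controls of the POU2AF1 guide and 1 higher and 14 lower of 138 with those of the ELL2 guide. With MM.1S with IL-6 and no guide the split was 7 higher and 11 lower of 230.

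Some of the largest intron differences, in contrast, set the MM.1S group apart from its own line. UBB, a polyubiquitin gene whose coding repeats are nearly identical to each other, was listed with an intron in an overlapping region at 23.2, 22.5 and 22.6% in INA-6 and 62.5, 70.3 and 61.7% in MM.1S, but at 21.8, 22.5 and 21.4% in the MM.1S controls of the ELL2 guide and 22.02, 20.1 and 20.9% in MM.1S with IL-6 and no guide. CUTA, a small protein named for copper tolerance in bacteria, retained a 76-nt intron in 54.05, 54.3 and 53.98% in INA-6, 18.8, 9.62 and 11.5% in MM.1S and 48.1, 47.4 and 46.8% in MM.1S with IL-6 and no guide. The long non-coding RNA MIR4435-2HG retained an intron in 47.1, 46.1 and 47.2% in INA-6, 6.68, 5.31 and 6.32% in MM.1S and 45.3, 44.2 and 45.4% in MM.1S with IL-6 and no guide. In all of these the other listed MM.1S control groups with IL-6 lay with INA-6. The MM.1S cells with the SRSF1 and HNRNPL guides, which belong to the same tables as the MM.1S group compared, lay with that group, at 64.6% ± 5.2 and 55.8% ± 1.1 for UBB, 12.9% ± 2.9 and 9.08% ± 1.2 for CUTA and 5.71% ± 0.29 and 5.75% ± 0.1 for MIR4435-2HG. The sequencing provider of each library is not stated, and its part in these values was not tested.

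Over all called events, the other control groups were set beside the means of the lines. At least 1 other MM.1S control group with IL-6 was listed for 226 of the 721 called events, and its mean, or the mean of several, was nearer to INA-6 sgEGFP than to MM.1S sgEGFP in 71 (31.4%). This was so in 55 of 123 events lower in INA-6 (44.7%) and in 16 of 103 higher (15.5%). With those MM.1S groups, 136 of the 226 were still at least 10 points apart in the same direction, and 21 lay on the other side. INA-6 with IL-6 and no guide was listed for 153 called events and was nearer to MM.1S sgEGFP in 16 (10.5%). Called events were chosen for their difference in the libraries compared, so a smaller difference in others is partly set by that choice. Of the 102 called events named by rule or in CD44, 35 had another MM.1S control group and 13 of these were nearer to INA-6. These were the events of BRD1, CUTA, FOXM1, HNRNPA3, MIR4435-2HG, PMS2, RPL13, RPL34, RPL6, RPL8, SRRM1, TAF1D and UBB. The other 67 were listed in no other MM.1S control group with IL-6.

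**Figure D4:**
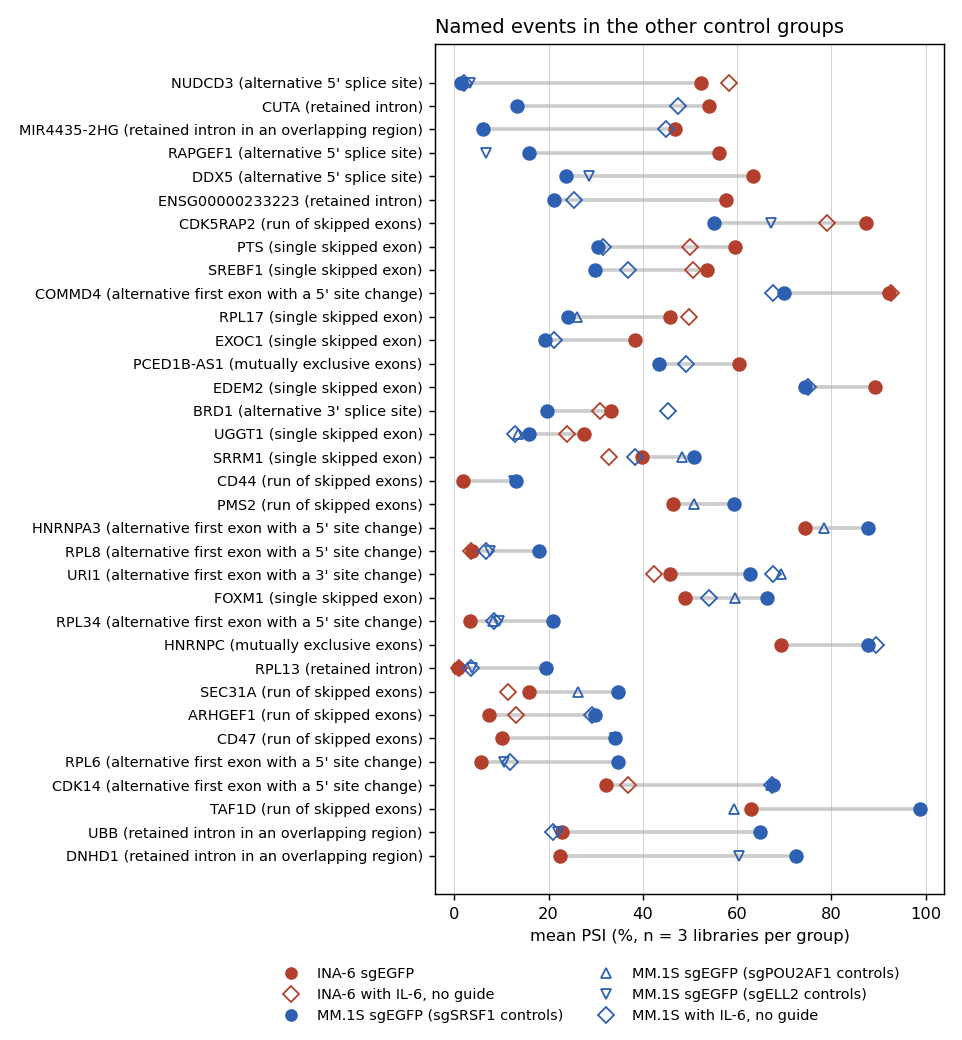
Mean PSI (%, n = 3 libraries per group) of the named called events listed in another MM.1S control group with IL-6, 1 event per gene, with the grey bar joining MM.1S sgEGFP (filled blue) and INA-6 sgEGFP (filled red). Open blue symbols of UBB, CUTA, MIR4435-2HG, TAF1D and the RPL6, RPL8, RPL13 and RPL34 genes lie near INA-6, and those of NUDCD3, PTS, CDK14, HNRNPC and CD47 near MM.1S sgEGFP.

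A comparison with no library in common was made between INA-6 and MM.1S cells with IL-6 and no guide, over the events listed in the IL-6 tables of both lines. Of 170 tested events 60 were called (35.3%), 45 higher and 15 lower in INA-6, and among the 173 of those events tested in the sgEGFP libraries 57 were called (32.9%), 29 higher and 28 lower. Of these 57 events, 49 had the same direction in the cells without a guide, 32 were also called there in that direction and 3 were called in the opposite one. For events higher in INA-6 the direction was kept in 27 of 29, with a median of 17.5 points in the sgEGFP libraries and 20.2 points in the others. For events lower in INA-6 it was kept in 22 of 28, with a median of 16.1 and 5.68 points. All 20 events of at least 20 points kept their direction. NUDCD3 was at 58.6, 59.1 and 57.3% in INA-6 and 0.849, 1.86 and 3.14% in MM.1S with no guide. COMMD4, at 92.6, 91.4 and 92.9% and 71.8, 68.9 and 69.02% with the EGFP guide for a first-exon 5′ site, was at 93.6, 91.8 and 92.9% in INA-6 and 68.5, 64.7 and 69.5% in MM.1S with no guide. These events were listed for their own IL-6 comparison in both lines, so they are not a sample of all events.

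Differences between groups of the same line gave the scale. MM.1S sgEGFP controls of the POU2AF1 guide differed from those of the SRSF1 guide in 31 of 502 tested events (6.18%), where 18.5% of the same table's events differed between the lines. For the controls of the ELL2 guide it was 24 of 343 (7.0%) against 15.8%. INA-6 sgEGFP and INA-6 with IL-6 and no guide differed in 33 of 668 events (4.94%), against 18.6% between lines over that table. MM.1S with IL-6 and no guide differed from MM.1S sgEGFP in 101 of 731 (13.8%), 21 higher and 80 lower, against 21.4% between lines. The share called was thus larger between the lines in each of these 4 tables, and closest for the last. The difference between these shares was not tested, and each table lists events chosen in its own comparison.

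**Figure D5:**
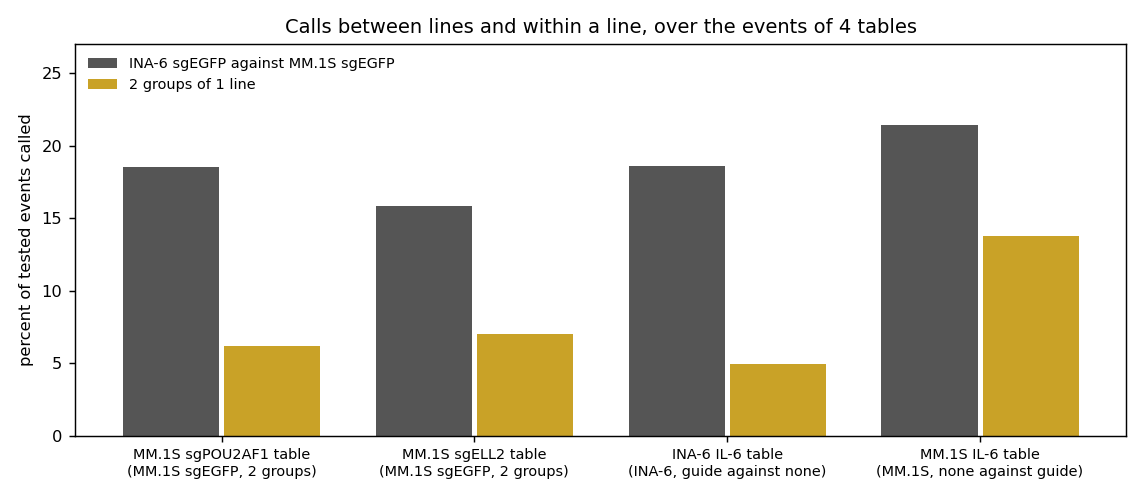
Percent of tested events called (adjusted p of limma under 0.05 and at least 10 points), over the events of each of 4 tables, for INA-6 sgEGFP against MM.1S sgEGFP (dark bars) and for 2 groups of the same line (yellow bars). The dark bars reach 15.8 to 21.4% and the yellow bars 4.94 to 13.8%.

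The remaining libraries of each line, with other guides or with no guide, were not used in the calls. The MM.1S libraries among them include those of the SRSF1 and HNRNPL guides, from the same tables as the MM.1S control compared, so line and sample set cannot be told apart here either. In 363 of the 721 called events (50.3%) every such listed INA-6 library lay beyond every such listed MM.1S library in the direction of the call, and in 4 the lines were separated in the opposite direction. Of all tested events 25.3% were separated in the direction of the sgEGFP difference. The INA-6 libraries of the POU2AF1 and ELL2 guides took part in the listing of events, so they are not independent of the events tested. Between 6 and 33 libraries were listed for a called event, with a median of 9. The widest gaps between the lines were 91.7 points for TOR1AIP1, 43.4 points for PSRC1, 42.0 points for ANKDD1A and 38.1 points for SLMAP. For these 4 the listed MM.1S libraries were those of the SRSF1 and HNRNPL guides, and for TOR1AIP1 the INA-6 values of 0 were a condition of listing.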

How the data were processed

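The deposited splicing tables hold strand-specific mRNA libraries of INA-6 and MM.1S cells. Per the submitters' processing notes, reads were aligned to GRCh38 with STAR 2.7.10b and handled with SAMtools 1.19.2. No label or header names the splicing caller. The authors list percent spliced in (PSI, 0 to 100) for the 3 libraries of each group in 1 cell, with no read counts or replicate numbers. The deposited column headed as an FDR behaves as an unadjusted p-value, and 6 of the 8 tables list only events under 0.05 or with no value. It was used only to tell listed events apart, never as a result. The value headers of both INA-6 guide tables name MM.1S, while the names of the tables say INA-6, which was followed. Across events with a p-value, their mean PSI had r = 0.9883 with INA-6 with IL-6 and no guide (1048 events) and 0.9549 to 0.9671 with the MM.1S groups with IL-6, a description over unequal sets of events.

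Events were joined on region, target, event type and transcript. The sgEGFP values were identical (tolerance 1e-09) in both INA-6 tables for 4634 of 4634 shared events, and in the SRSF1 and HNRNPL tables for 9220 of 9220 joined events, so each library entered once. PSI was clipped to 1 and 99%, converted to log2 odds and fitted with limma 3.58.1 in R 4.3.3, with Benjamini-Hochberg adjustment over 5531 events. The fit needed 3 values per group, which 230 joined events lacked, and 3972 more did not vary after clipping. Figures and summaries used Python 3.11.15 with numpy 2.4.6, pandas 2.3.3 and matplotlib 3.10.9. The fit was also tested on simulated data. The members, gene lists and tests were chosen with earlier results of these data known. The sets of zinc finger, non-coding and unnamed genes were added after the events were seen. Named events are, with 1 event per gene (the largest in either direction, so that a gene's second event in the other direction is left out), the 12 largest in each direction, up to 5 per gene list, the 2 largest per type and direction (1 event per gene and type), the 3 largest per direction among skipped exons of up to 30 nt, and all events of the targeted and IL-6 receptor genes. The full set of CD44 events and the 3 further sequences were picked after their values were seen. Alternatives covered the scale, the clipping, filters, the spread estimate, the choice of tables and controls, and each library left out. Results of some genes are not reported here.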

Additional observations from a re-analysis of the deposited data

How the results depend on the processing

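The count of 721 called events lay between 663 and 762 under 10 alternatives: an arcsine (717) or untransformed scale (682), clipping at 5 and 95% (744), at least 2 libraries per group (745), only events of mean PSI between 5 and 95% (746), limma with trend and robust settings (724), an unadjusted Welch p (663), only events with a deposited p (713), 1 event per target (706), and the tables' own event identifier (762), the last chosen after seeing the data. With 1 library left out it ranged from 576 to 752, with 215 to 291 higher and 356 to 461 lower, and the lowest counts were those without an INA-6 library (576 to 586, against 715 to 752 without an MM.1S library). Restricting the events to those of the INA-6 sgPOU2AF1 table gave 524 calls, and 320 calls (127 higher and 193 lower) were left with the sgELL2 events alone. A minimum of 20 points gave 206 (75 and 131) and no minimum 2063 (863 and 1200), by construction. With other MM.1S controls the count was 81 in place of 92 (sgPOU2AF1 table, 45 higher and 36 lower in place of 39 and 53) and 52 in place of 53 (sgELL2 table). The difference of TAF1D was 3.47 points with the first of these controls and that of UBB 0.834 points with the second, both reversed, and the cause was not tested. With the first, SRRM1 (-8.55), HNRNPA3 (-4.07), PMS2 (-4.51) and RPL34 (-4.94 points) lost their call. With the second, RPL6 (-4.97), RPL13 (-2.82), RPL34 (-6.13) and RPL8 (-3.81 points) did. Of 102 called named events, 76 kept their call under every alternative run for them and 17 lost it when 1 library was left out. With 1 library left out, the comparison without a guide gave 58 to 61 calls, INA-6 with and without the EGFP guide 34 to 38, and the MM.1S sgEGFP groups 22 to 34 (sgPOU2AF1) and 21 to 28 (sgELL2). No paired analysis was possible because the tables give the values of a group without replicate numbers. PSI rests on an unknown number of reads, so wide spreads such as those of DNHD1, PSMC3 and MYL6 cannot be set against depth.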

Other observations

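Zinc finger genes and non-coding RNAs, sets chosen after the data were seen, had many called genes. Of 57 tested genes with a ZNF symbol 19 were called (33.3%), 8 only higher in INA-6, 9 only lower and 2 in both directions, with a median difference of -0.971 points over 103 tested events. Of 72 tested antisense, divergent, LINC and host-gene RNAs 25 were called (34.7%), 12 only higher, 12 only lower and 1 in both directions, with a median of -0.457 points. Among genes listed only by an Ensembl identifier 8 of 52 were called (15.4%), and over all genes 18.5%. Number of events per gene, transcript level and read depth differ between such sets, and their part was not tested.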
